A study of Mus musculus with 12 samples.

Results

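The genes described here handle iron or belong to the tristetraprolin family of RNA-binding proteins. The list names 10 genes, namely Tfrc, Fth1, Ftl1, Slc40a1, Slc11a2, Aco1, Ireb2, Zfp36, Zfp36l1 and Zfp36l2, and a probe set was taken when its only gene symbol in the platform's annotation was on the list. Of the 18193 genes with such a probe set on the array, 9 were members, and they held 24 of the 45101 probe sets. Ftl1, the ferritin light chain, was named only by 3 probe sets that also list other genes, so no value is given for it. Of the 24 probe sets, 21 were tested with all ordinary probe sets, and the other 3 are Affymetrix control probe sets for the 3' part, the middle and the 5' part of Tfrc.

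All cells were TSC2-/- mouse embryonic fibroblasts, cultured connective tissue cells without the TSC2 protein that normally restrains the kinase complex mTORC1. Rapamycin cells received 20 nM of rapamycin, an mTORC1 inhibitor, for 14 h, and vehicle cells received DMSO for the same 14 h. PGC-1alpha cells were infected at confluence for 10 h with an adenovirus carrying PGC-1alpha, a transcriptional coactivator of mitochondrial genes, and GFP cells with an adenovirus carrying green fluorescent protein, and both were harvested 14 h after the medium was changed. Each of the 4 groups had 3 Affymetrix MOE430 v2 arrays, which the design text calls biological triplicates. All groups share the TSC2 deletion, so no comparison here is against cells with an intact TSC2, and the labels do not say whether the cells were 1 line or 1 clone. Intensities were normalized by the authors within the rapamycin and vehicle arrays and, separately, within the PGC-1alpha and GFP arrays, so levels were compared only inside each of these pairs.

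Cells take up iron by binding transferrin to the transferrin receptor, which Tfrc encodes, and drawing the complex into endosomes, where the transporter of Slc11a2 (DMT1) moves the released iron into the cytosol. Ferritin, built of heavy (Fth1) and light (Ftl1) chains, stores it, and ferroportin (Slc40a1) exports it. When iron is scarce, the iron regulatory proteins encoded by Aco1 and Ireb2 bind iron-responsive elements, which stabilises Tfrc mRNA and blocks translation of ferritin mRNAs. Tristetraprolin (Zfp36) and its relatives Zfp36l1 and Zfp36l2 are zinc-finger proteins that bind AU-rich elements in mRNAs and recruit deadenylases. Tristetraprolin is known to promote decay of Tfrc mRNA, and mTOR has been linked to its level.

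With rapamycin the clearest change was a fall of Tfrc on every probe set for it, 2.13-fold to 2.45-fold, together with smaller falls of Slc11a2 and of 1 probe set of Aco1. Within the tristetraprolin family, Zfp36 and Zfp36l1 rose and Zfp36l2 fell. With PGC-1alpha only Zfp36l1 passed the test, and it fell. By limma with Benjamini-Hochberg adjustment at 0.05, rapamycin raised 3 and lowered 8 of the 21 member probe sets (52.4%), against 25.5% of all 45037 probe sets tested, 11.5% higher and 14.0% lower. Their median log2 change was -0.14, against 0.0 for all probe sets. PGC-1alpha raised 0 and lowered 2 (9.52%), against 1.95% of all probe sets, 0.997% higher and 0.955% lower, with a median log2 change of 0.01. Members of the same gene share their transcript, so these counts are not counts of independent genes. The members were chosen with earlier results of these data known, so the shares are not an independent test. With the brightest probe set standing for a gene, 2 of the 9 genes rose and 3 fell with rapamycin, against 29.3% of all genes called, 11.3% higher and 18.0% lower. With PGC-1alpha 0 rose and 1 fell, against 2.01% of all genes, 1.41% higher and 0.594% lower.

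**Figure D1:**
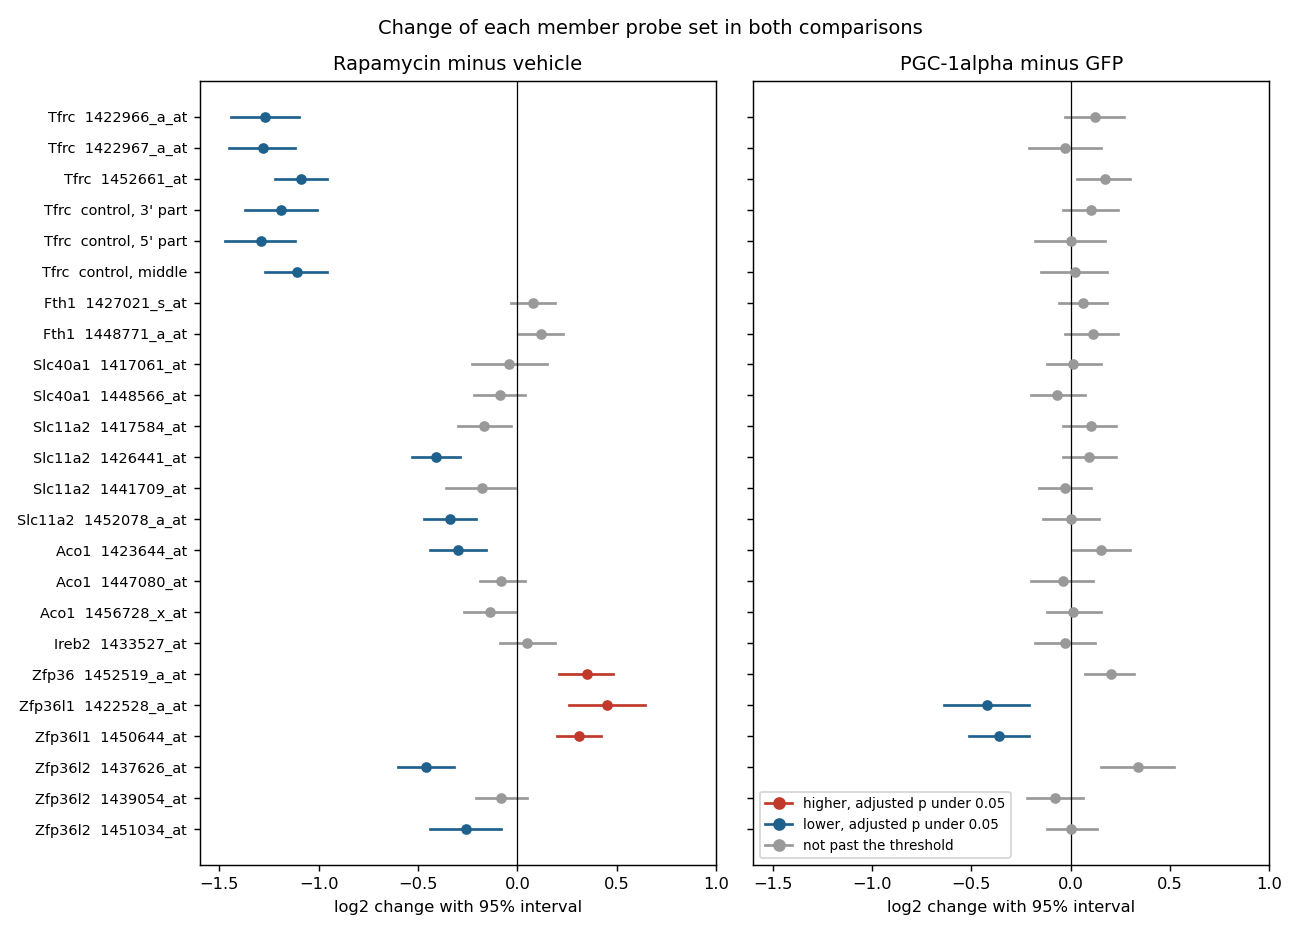
Log2 change of each member probe set, rapamycin minus vehicle on the left and PGC-1alpha minus GFP on the right, with 95% intervals from limma; colours mark the calls at an adjusted p of 0.05. All 6 Tfrc probe sets lie between -1.29 and -1.09 with rapamycin, while with PGC-1alpha they lie between -0.03 and 0.17.

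The window around the first Tfrc start site is shown because the Tfrc transcript changed most among the members. It covers 250 bases before to 30 bases after the start in RefSeq, build GRCm38.p6, chr16:32608646-32608925, plus strand, with the hypoxia response core ACGTG in capitals, its first base 2 bases before the start.
Tfrc: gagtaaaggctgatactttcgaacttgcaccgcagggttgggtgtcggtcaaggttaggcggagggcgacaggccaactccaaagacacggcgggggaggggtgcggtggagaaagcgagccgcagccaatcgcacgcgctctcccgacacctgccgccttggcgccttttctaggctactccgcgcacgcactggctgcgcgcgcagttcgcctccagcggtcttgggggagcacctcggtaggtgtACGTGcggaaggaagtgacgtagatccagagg
A further Tfrc start lies downstream, and its window, chr16:32608872-32609151, overlaps this stretch and holds the same ACGTG. Windows around a start were found for 7 member genes, 9 windows in all. These and all other windows were searched on both strands from 250 bases before to 30 after the start. ACGTG was in 2 of the 9, both of Tfrc, and in 18.5% of all 32851 windows. The ERR half-site AAGGTCA, a sequence bound by estrogen-related receptors that work with PGC-1alpha, was in 0 member windows and in 4.46% of all. The letters AAGATGGC of YY1, a factor tied to mTOR and PGC-1alpha, were in 0 member windows and in 2.29% of all. A match or its lack describes these letters only.

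Tfrc was far lower with rapamycin on all 6 of its probe sets. On the brightest, 1452661_at, intensities were 1376, 1519.8 and 1550.2 in rapamycin cells, against 3126, 3263 and 3062 in vehicle cells. All rapamycin arrays lay well below all vehicle arrays. The log2 change was -1.09 (SE 0.06, 95% interval -1.22 to -0.96, limma adjusted p = 1.3e-07), or 2.13-fold lower with rapamycin. Among all 18193 genes, 30 had a lower change.

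The dimmer Tfrc probe sets gave the same direction and slightly larger changes. Probe set 1422966_a_at read 613, 757 and 747 in rapamycin cells, against 1761, 1725 and 1592 in vehicle cells, 2.41-fold lower (log2 change -1.27, SE 0.08, limma adjusted p = 3.1e-07). Probe set 1422967_a_at read 176, 205 and 184 in rapamycin cells, against 498, 470.5 and 410 in vehicle cells, 2.43-fold lower (log2 change -1.28, SE 0.08, limma adjusted p = 2.4e-07). Rapamycin and vehicle arrays did not overlap on either probe set.

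The 3 Tfrc control probe sets show the fall along the length of the mRNA. The 3' part read 258, 305 and 290 in rapamycin cells, against 704, 676 and 568 in vehicle cells, 2.28-fold lower. The middle read 92.0, 107 and 99.4 in rapamycin cells, against 228, 219 and 198 in vehicle cells, 2.16-fold lower. The 5' part read 66.7, 80.0 and 69.5 in rapamycin cells, against 181, 189.9 and 159 in vehicle cells, 2.45-fold lower. In a limma fit that kept the control probe sets, the adjusted p-values of the 3' part, the middle and the 5' part were 6.8e-07, 3.7e-07 and 2.8e-07. For the Gapdh controls, the 3' signal over the 5' signal, a measure of RNA integrity and labelling, was 0.82 ± 0.011 in rapamycin and 0.849 ± 0.011 in vehicle arrays (SD, n = 3 each), and its part in the Tfrc result was not tested.

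PGC-1alpha gave no call on Tfrc. On 1452661_at, intensities were 3766, 3611 and 3481 in PGC-1alpha cells, against 3173, 3101 and 3394 in GFP cells. Each PGC-1alpha array lay above each GFP array, but the log2 change of 0.17 (95% interval 0.03 to 0.3) had an adjusted p of 0.261 by limma. Probe set 1422966_a_at averaged 1693 ± 125 in PGC-1alpha and 1559 ± 87.3 in GFP cells, and 1422967_a_at averaged 403 ± 42.1 in PGC-1alpha and 411 ± 32.3 in GFP cells (SD, n = 3 each). Their log2 changes were 0.12 (95% interval -0.03 to 0.27) and -0.03 (-0.21 to 0.15), and the groups overlapped on both.

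The response of Tfrc to rapamycin differed from its response to PGC-1alpha by test. The difference between the effects, fitted over all 12 arrays, was -1.26 on the log2 scale for 1452661_at (SE 0.09, limma adjusted p = 1.6e-08), -1.38 for 1422966_a_at and -1.25 for 1422967_a_at. The control probe sets gave -1.29 for the 3' part, -1.13 for the middle and -1.29 for the 5' part. All 6 were called, and leaving out any of the 12 arrays in turn left the 3 ordinary probe sets called.

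**Figure D2:**
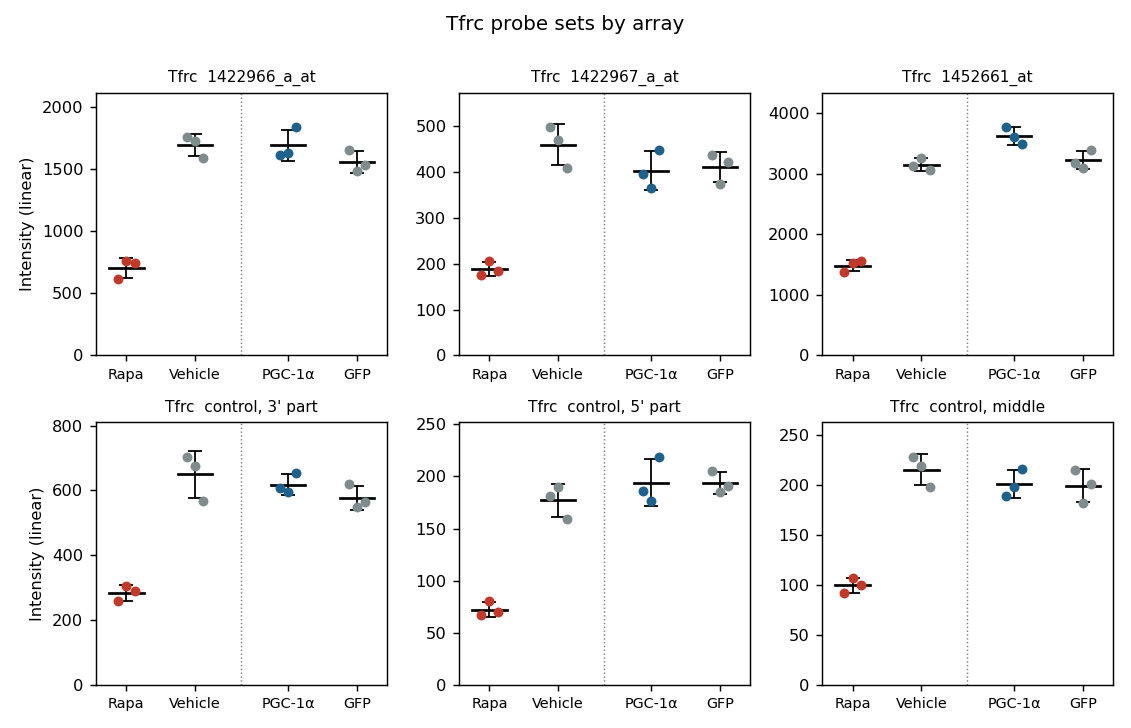
Linear intensity of the 6 Tfrc probe sets on each array; points are arrays, horizontal lines group means and bars SD (n = 3), and the dotted line parts the 2 separately normalized comparisons. Every rapamycin array lies below every vehicle array, while PGC-1alpha and GFP arrays overlap on all but 1452661_at.

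Slc11a2, the endosomal iron transporter, fell with rapamycin on 2 of its 4 probe sets. On 1452078_a_at, its brightest, intensities were 348, 366 and 323 in rapamycin cells, against 446, 444 and 425 in vehicle cells, 1.27-fold lower with rapamycin (log2 change -0.34, SE 0.06, limma adjusted p = 7.3e-04). On 1426441_at they were 196, 214 and 209 in rapamycin cells, against 281, 269 and 273 in vehicle cells, 1.33-fold lower (log2 change -0.41, SE 0.06, limma adjusted p = 9.3e-05). The groups did not overlap on either. Probe set 1417584_at read 185, 171 and 195 in rapamycin cells, against 199, 199.7 and 219 in vehicle cells, with no overlap but an adjusted p of 0.080 by limma. The dimmest, 1441709_at, averaged 52.5 ± 4.69 in rapamycin and 59.6 ± 6.02 in vehicle cells (SD, n = 3 each), and its arrays overlapped (log2 change -0.18, 95% interval -0.36 to -0.01, limma adjusted p = 0.120). It was called without rapamycin replicate 1, at -0.25, and 1417584_at was called when dim probe sets were left out.

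With PGC-1alpha, none of the 4 Slc11a2 probe sets passed the test. On 1452078_a_at, intensities were 443, 405 and 424 in PGC-1alpha cells, against 420.1, 399.9 and 452 in GFP cells. The groups overlapped, and the log2 change was 0.0 (95% interval -0.14 to 0.14). The other 3 changes were 0.1, 0.09 and -0.03, also with overlap. By the test of the difference, rapamycin had the lower effect on 1452078_a_at (-0.34, limma adjusted p = 0.008), on 1426441_at (-0.5, adjusted p = 1.4e-04) and on 1417584_at (-0.26, adjusted p = 0.045). The last call was lost after quantile normalization over 12 arrays and without GFP replicate 2, PGC-1alpha replicate 1 or 3, rapamycin replicate 1 or 2, or vehicle replicate 2 or 3.

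Fth1, the ferritin heavy chain, was among the brightest transcripts and did not pass the test in either comparison. On 1448771_a_at, intensities were 6254, 6321 and 6440 in rapamycin cells, against 5929.5, 5775 and 5800.2 in vehicle cells. On 1427021_s_at they were 13537, 13333 and 13464 in rapamycin cells, against 12783, 12671 and 12779.6 in vehicle cells. On both probe sets each rapamycin array lay above each vehicle array by a narrow margin. The log2 changes were 0.12 (95% interval 0.01 to 0.23, limma adjusted p = 0.115) and 0.08 (95% interval -0.03 to 0.19, adjusted p = 0.324). The first of these was called under 3 alternatives, with adjusted p-values of 0.036 with a pseudocount of 16, 0.027 after quantile normalization over 12 arrays and 0.017 with a trended, robust variance.

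PGC-1alpha also left Fth1 uncalled. Probe set 1448771_a_at averaged 5325 ± 206 in PGC-1alpha and 4949.6 ± 243 in GFP cells, and 1427021_s_at averaged 12022 ± 161 in PGC-1alpha and 11549 ± 140.4 in GFP cells (SD, n = 3 each). The groups overlapped on the first and not on the second, with log2 changes of 0.11 (95% interval -0.03 to 0.24) and 0.06 (-0.06 to 0.18). Fth1 has many processed pseudogenes, and the suffix _s_at marks probes that may match several transcripts, so its values may include other copies.

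Slc40a1, the iron exporter ferroportin, was dim and gave no call. Probe set 1417061_at read 77.7, 78.8 and 95.9 in rapamycin cells, against 79.6, 82.4 and 96.3 in vehicle cells. Probe set 1448566_at read 52.6, 48.2 and 52.9 in rapamycin cells, against 56.7, 51.7 and 55.4 in vehicle cells. The groups overlapped on both. Array medians over all probe sets were 77.5 to 81.0, so in rapamycin and vehicle cells 1417061_at lay near the middle of the array and 1448566_at below it. Probe set 1417061_at averaged 56.7 in PGC-1alpha and 56.3 in GFP cells, and 1448566_at 49.9 in PGC-1alpha and 52.2 in GFP cells, all below the medians. No detection call tells these probe sets from background. Their log2 changes were -0.04 (95% interval -0.23 to 0.15) and -0.09 (-0.22 to 0.04) with rapamycin, and 0.01 (-0.12 to 0.15) and -0.07 (-0.2 to 0.07) with PGC-1alpha.

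Of the genes for the iron regulatory proteins, Aco1 fell on 1 of 3 probe sets with rapamycin and Ireb2 was not called. Aco1 probe set 1423644_at read 403, 468 and 437 in rapamycin cells, against 561, 541 and 511 in vehicle cells, without overlap. It was 1.23-fold lower with rapamycin (log2 change -0.3, SE 0.07, limma adjusted p = 0.003). The brightest Aco1 probe set, 1456728_x_at, read 1182, 1214 and 1339.9 in rapamycin cells, against 1332, 1402 and 1372 in vehicle cells, with an overlap between the groups. Its log2 change was -0.14 (95% interval -0.27 to -0.01, limma adjusted p = 0.120), and the suffix _x_at marks probes that may match other transcripts. The dim 1447080_at averaged 38.1 ± 1.03 in rapamycin and 40.1 ± 1.08 in vehicle cells (SD, n = 3 each; adjusted p = 0.369 by limma). Without rapamycin replicate 3 the brightest probe set was called, at -0.19.

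On Aco1 1423644_at, intensities were 556, 543 and 535 in PGC-1alpha cells, against 491, 453 and 527 in GFP cells. Each PGC-1alpha array lay above each GFP array, but the log2 change of 0.15 (95% interval 0.01 to 0.3) had an adjusted p of 0.373 by limma. The rapamycin effect was lower than the PGC-1alpha effect by -0.46 on the log2 scale (SE 0.09, limma adjusted p = 0.001). The other Aco1 probe sets changed by 0.01 and -0.04 with PGC-1alpha, with overlapping groups.

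Ireb2, the gene of the iron regulatory protein that is degraded when iron is plentiful, was not called on its probe set 1433527_at. Intensities were 617, 656 and 659 in rapamycin cells, against 581, 675 and 613 in vehicle cells, and 613, 602 and 643 in PGC-1alpha cells, against 610, 594 and 694 in GFP cells. The groups overlapped in both comparisons. The log2 changes were 0.05 (95% interval -0.09 to 0.19) with rapamycin and -0.03 (-0.18 to 0.12) with PGC-1alpha.

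**Figure D3:**
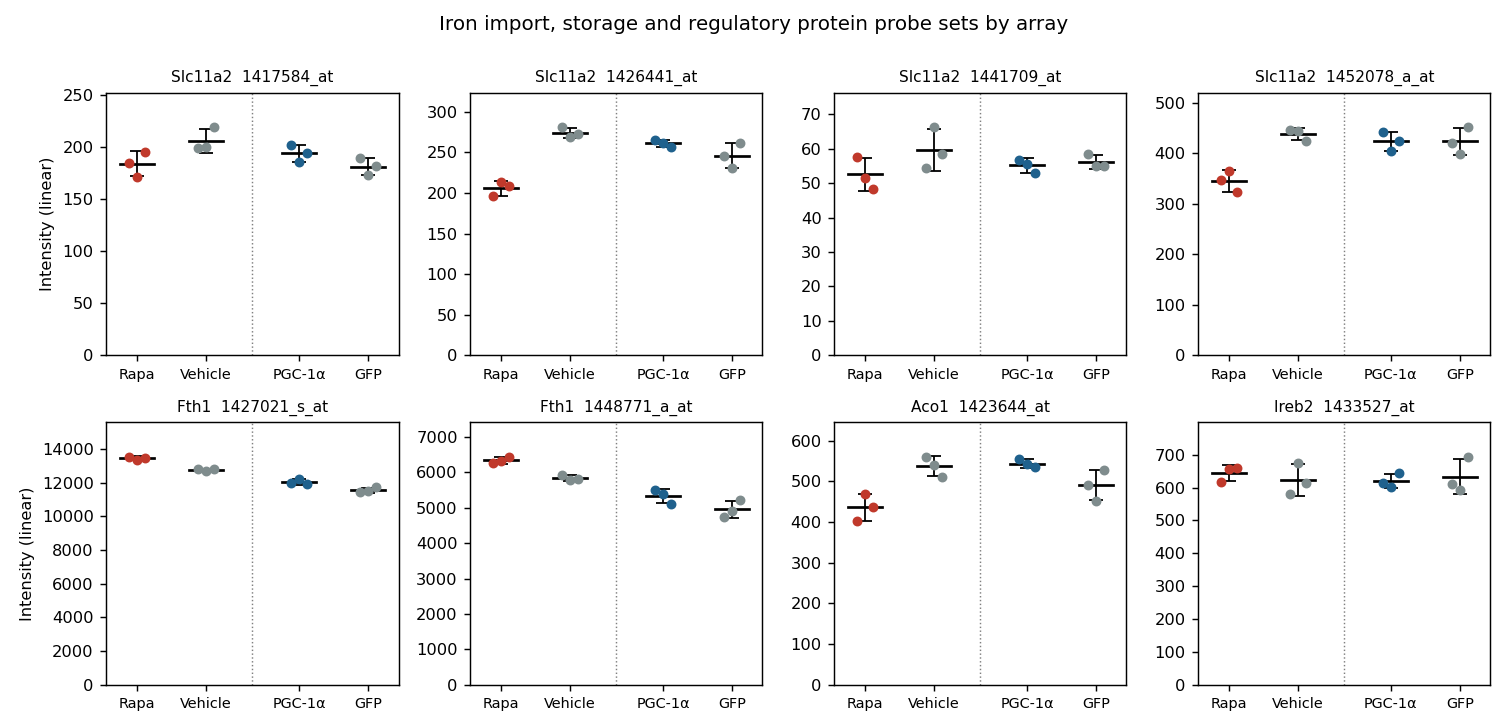
Linear intensity on each array of 8 probe sets of Slc11a2, Fth1, Aco1 and Ireb2; points are arrays, horizontal lines group means and bars SD (n = 3), with the 2 separately normalized comparisons on either side of the dotted line. Rapamycin arrays lie below vehicle arrays on Slc11a2 1417584_at, 1426441_at and 1452078_a_at and Aco1 1423644_at, slightly above them on Fth1, and overlap them on Ireb2. The other Aco1 probe sets, 1447080_at and 1456728_x_at, were not called and are not drawn.

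The start regions of 2 tristetraprolin family genes that rose with rapamycin are shown from RefSeq, build GRCm38.p6, each from 250 bases before to 30 after the start. The Zfp36 window is chr7:28379199-28379478, minus strand, and its capitals mark the SP1 box GGGCGG read on the opposite strand. The Zfp36l1 window is chr12:80112984-80113263, minus strand, and its capitals mark the TATA box letters TATAAA, whose first base lies 29 bases before the start.
Zfp36: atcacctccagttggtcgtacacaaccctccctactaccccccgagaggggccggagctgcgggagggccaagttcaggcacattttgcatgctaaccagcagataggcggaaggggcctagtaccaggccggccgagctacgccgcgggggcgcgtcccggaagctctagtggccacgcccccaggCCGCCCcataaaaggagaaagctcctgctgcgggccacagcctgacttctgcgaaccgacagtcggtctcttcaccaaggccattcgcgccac
Zfp36l1: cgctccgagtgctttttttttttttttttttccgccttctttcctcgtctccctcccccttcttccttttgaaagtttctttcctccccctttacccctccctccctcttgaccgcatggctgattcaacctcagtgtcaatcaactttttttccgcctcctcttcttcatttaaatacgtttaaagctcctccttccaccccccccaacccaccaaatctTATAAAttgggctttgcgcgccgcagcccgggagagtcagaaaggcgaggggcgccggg
GGGCGG was in 6 of the 9 member windows and in 34.7% of all windows, and TATAAA in 3 of the 9 and in 13.1% of all. Besides Zfp36l1, TATAAA was in Ftl1 at position 18, past the start, and in Fth1 at position -124 on the opposite strand.

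Zfp36, which encodes tristetraprolin, rose with rapamycin on its only probe set, 1452519_a_at. Intensities were 277, 322 and 312 in rapamycin cells, against 243, 235 and 237 in vehicle cells. Each rapamycin array lay above each vehicle array, and the difference was 1.27-fold (log2 change 0.35, SE 0.06, 95% interval 0.21 to 0.48, limma adjusted p = 9.5e-04). Among all genes, 786 had a higher change. With PGC-1alpha the intensities were 246, 256 and 248, against 212, 213 and 230.5 in GFP cells. These arrays did not overlap either, but the log2 change of 0.2 (95% interval 0.07 to 0.32) had a limma adjusted p of 0.147. The rapamycin and PGC-1alpha effects on Zfp36 were not shown to differ (difference 0.15, 95% interval -0.03 to 0.33, limma adjusted p = 0.256).

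Zfp36l1, a close relative that also drives decay of AU-rich mRNAs, rose with rapamycin and fell with PGC-1alpha. On 1450644_at, intensities were 2025, 2096 and 2078 in rapamycin cells, against 1646, 1672 and 1689 in vehicle cells, 1.24-fold higher with rapamycin (log2 change 0.31, SE 0.05, limma adjusted p = 5.3e-04). On 1422528_a_at they were 683, 908 and 703 in rapamycin cells, against 571, 555 and 539 in vehicle cells, 1.37-fold higher (log2 change 0.45, SE 0.09, limma adjusted p = 0.002). Neither probe set had an overlap between these groups, although rapamycin replicate 2 stood well above the other rapamycin arrays on the second.

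With PGC-1alpha, 1450644_at read 1268, 1227 and 1268 in PGC-1alpha cells, against 1492, 1583 and 1777 in GFP cells, 1.29-fold lower (log2 change -0.36, SE 0.07, limma adjusted p = 0.019). Probe set 1422528_a_at read 401, 482 and 351 in PGC-1alpha cells, against 509, 559.6 and 574 in GFP cells, 1.34-fold lower (log2 change -0.42, SE 0.1, limma adjusted p = 0.048). All PGC-1alpha arrays lay below all GFP arrays on both, and 73 of all genes had a lower change than the brighter probe set. The direction was the same whichever of the 6 arrays was left out, but the calls were not. The first probe set was called in 2 of 6 such fits, without GFP replicate 1 (adjusted p = 0.021) and without GFP replicate 3 (0.011), and its limma adjusted p rose to 0.071 without GFP replicate 2 and to 0.071, 0.087 and 0.097 without PGC-1alpha replicates 1, 3 and 2. The second was called only without PGC-1alpha replicate 2 (adjusted p = 0.014), and its adjusted p was 0.051 to 0.204 without another array. The difference between the rapamycin and PGC-1alpha effects was 0.67 for 1450644_at (SE 0.09, limma adjusted p = 1.3e-05) and 0.88 for 1422528_a_at (SE 0.15, adjusted p = 1.8e-04), and both stayed called without any single array of the 12.

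Zfp36l2, the third family member on the list, fell with rapamycin. On 1437626_at, its brightest probe set, intensities were 1224, 1403 and 1196 in rapamycin cells, against 1730.2, 1749 and 1765 in vehicle cells, without overlap. It was 1.38-fold lower with rapamycin (log2 change -0.46, SE 0.06, 95% interval -0.6 to -0.32, limma adjusted p = 1.3e-04). Probe set 1451034_at read 212, 252 and 202 in rapamycin cells, against 289, 249 and 255 in vehicle cells. These arrays overlapped, and the call (log2 change -0.26, SE 0.08, limma adjusted p = 0.039) was lost without rapamycin replicate 1 or 3 or without vehicle replicate 1 or 3, with an adjusted p of up to 0.171. It was also lost with a pseudocount of 16 (adjusted p = 0.062) and after quantile normalization over 12 arrays (adjusted p = 0.063). The third, 1439054_at, averaged 145 ± 3.11 in rapamycin and 153 ± 10.3 in vehicle cells (SD, n = 3 each) and was not called (adjusted p = 0.410 by limma).

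With PGC-1alpha, 1437626_at read 1889, 1777 and 1870.1 in PGC-1alpha cells, against 1304, 1406 and 1699 in GFP cells. All PGC-1alpha arrays lay above all GFP arrays, and the log2 change was 0.34 (95% interval 0.15 to 0.52, limma adjusted p = 0.075). It was called without GFP replicate 3 (0.45, adjusted p = 0.002), in the 12-array fit (adjusted p = 0.023) and with dim probe sets left out (adjusted p = 0.042). Without GFP replicate 3, Zfp36 was called too, at 0.23 (adjusted p = 0.028). GFP replicate 3 stood apart from its group over all probe sets. The SD of its log2 differences was 0.155 and 0.167 from the other GFP arrays, against 0.109 between those, and 0.142 to 0.151 from the PGC-1alpha arrays. The other Zfp36l2 probe sets changed by 0.0 and -0.08, with overlap between the groups. The rapamycin effect on 1437626_at was lower than the PGC-1alpha effect by -0.8 (SE 0.11, limma adjusted p = 3.9e-05), and on 1451034_at the difference of -0.26 was not called (adjusted p = 0.104) unless rapamycin replicate 2 was left out.

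**Figure D4:**
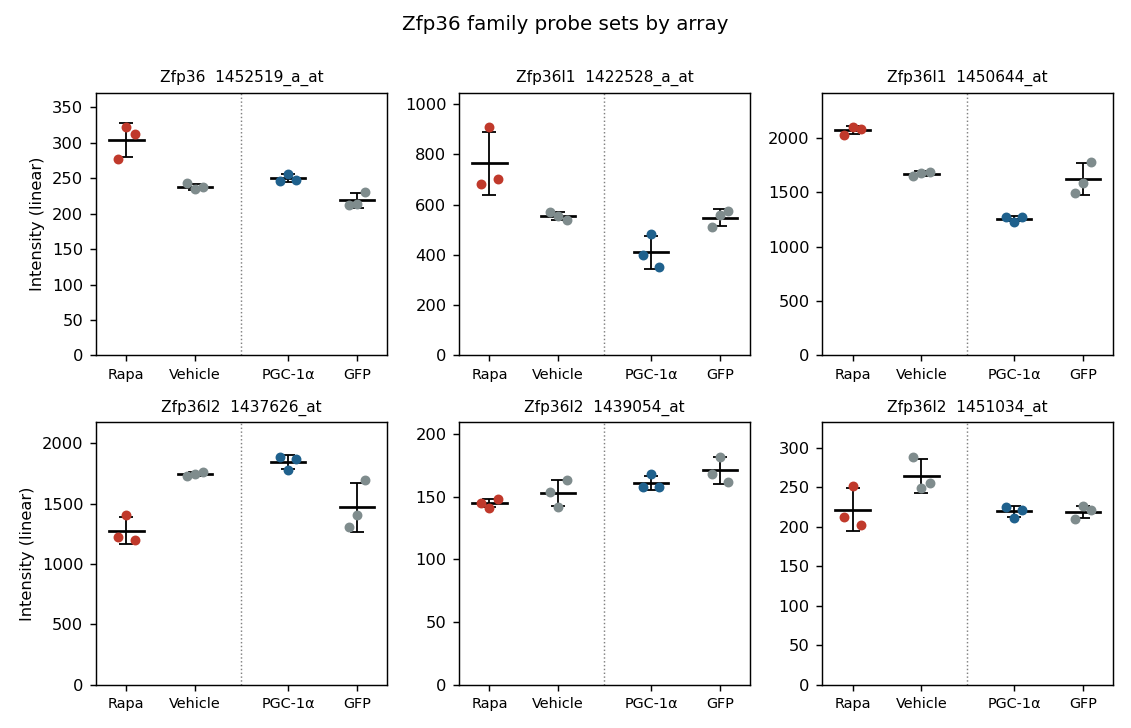
Linear intensity of the 6 probe sets of Zfp36, Zfp36l1 and Zfp36l2 on each array; points are arrays, horizontal lines group means and bars SD (n = 3), and the dotted line parts the 2 separately normalized comparisons. On Zfp36l1 the rapamycin arrays lie above the vehicle arrays and the PGC-1alpha arrays below the GFP arrays, while on Zfp36l2 1437626_at the order is the other way round. With PGC-1alpha, neither 1437626_at (limma adjusted p = 0.075) nor the other Zfp36l2 probe sets were called.

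Across the members, the test of the difference called 10 of 21 probe sets, 2 higher and 8 lower for rapamycin (47.6%), against 20.7% of all probe sets, 8.7% higher and 12.0% lower. The 2 higher were those of Zfp36l1. The 8 lower were 3 of Tfrc, 3 of Slc11a2, 1 of Aco1 and 1 of Zfp36l2. Arrays of the compared groups did not overlap on 14 of 21 member probe sets with rapamycin, 5 above and 9 below, against 37.9% of all probe sets, 18.0% above and 19.9% below. With PGC-1alpha they did not overlap on 7, 5 above and 2 below, against 15.7% of all, 7.76% above and 7.91% below. All fold changes are relative to the normalization: when arrays were scaled on 9 spike control probe sets, every log2 change moved by -0.16 with rapamycin and by 0.14 with PGC-1alpha. This scaling was applied to values already normalized by the authors, and whether it follows RNA per cell was not tested. The differences between the effects were not tested with spike control scaling. On that scale the rise of Zfp36 with rapamycin was 0.19 (limma adjusted p = 0.061), that of Zfp36l1 1450644_at 0.15 (adjusted p = 0.141), and the fall of Zfp36l1 with PGC-1alpha -0.22 and -0.29 (adjusted p = 0.638 and 0.562), while Tfrc with rapamycin was -1.25, -1.43 and -1.44 and called. The other Zfp36l1 probe set, 1422528_a_at, was still called higher with rapamycin there (0.29, limma adjusted p = 0.011). All 4 Slc11a2, all 3 Aco1 and all 3 Zfp36l2 probe sets and Slc40a1 1448566_at (-0.25, adjusted p = 0.037) were called lower with rapamycin on that scale, and the uncalled changes of Fth1 were -0.08 and -0.04.

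Of 30 other iron genes measured of 31 listed, each by its brightest probe set, 4 rose and 7 fell with rapamycin, against 11.3% and 18.0% of all genes, with a median log2 change of 0.01 (3 higher and 10 lower on the spike control scale). Lcn2, which encodes the siderophore-binding lipocalin 2, read 368 ± 20.7 in rapamycin and 100.5 ± 13.1 in vehicle cells (SD, n = 3 each; log2 change 1.88, limma adjusted p = 2.8e-08). Steap4, a metalloreductase, averaged 1226 in rapamycin and 606 in vehicle cells (1.02), and Cp, the ferroxidase ceruloplasmin, 2073 in rapamycin and 1274 in vehicle cells (0.7), with all 8 of its probe sets called higher. Flvcr1, a haem exporter, averaged 74.3 in rapamycin and 135 in vehicle cells (-0.87). The other called falls were -0.59 to -0.22, and the other called rise was 0.28. Heph, Ftmt, Hamp, Hjv and Hfe, all uncalled, averaged 27.6 to 64.9 in rapamycin and vehicle cells, below the array medians of 77.5 to 81.0. By probe sets other than the brightest, Pcbp2 was called lower with rapamycin on 2 of 3, Mcoln1 higher on 1 of 3 and Skp1 higher on 1 of 2. With PGC-1alpha 0 of the 30 were called by limma on their brightest probe set, although 2 of 5 probe sets of Steap2 and 1 of 8 of Cp were called lower, and the smallest p-values were those of Cp (log2 change -0.23, adjusted p = 0.087) and Slc39a14 (0.23, adjusted p = 0.118). Of 4 measured other mRNAs with an iron-responsive element (Alas2, Epas1, Cdc14a and Cdc42bpa), 0 were called by limma on their brightest probe set in either comparison, with log2 changes between -0.08 and 0.02 under rapamycin and between 0.01 and 0.16 under PGC-1alpha. The other of the 2 probe sets of Epas1 was called lower with rapamycin. Alas2, Epas1 and Cdc14a averaged 37.5, 64.5 and 29.0 in rapamycin and 39.0, 63.5 and 30.5 in vehicle cells. These means lie below the array medians of 77.5 to 81.0, and no detection call tells them from background.

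Among 23 measured genes of the mRNA decay machinery that tristetraprolin recruits, 2 rose and 5 fell with rapamycin, a share near the 29.3% of all genes called, and on the spike control scale 0 were higher and 10 lower. These counts rest on the brightest probe sets. By other probe sets, Cnot4 was called higher with rapamycin on 1 of 5 and Pan3 on 1 of 4. Cnot6 was called lower on 1 of 4 and Dcp2 on 1 of 2. Cnot9, a subunit of the CCR4-NOT deadenylase complex, averaged 589.8 ± 30.5 in rapamycin and 1012 ± 21.6 in vehicle cells (SD, n = 3 each; log2 change -0.78, limma adjusted p = 8.3e-07). Dis3, an exosome ribonuclease, averaged 756 in rapamycin and 1301 in vehicle cells (-0.78), and the decapping activator Lsm1 changed by -0.38. Ddx6, a helicase of decapping and translational repression, was higher with rapamycin, 429 ± 6.65 in rapamycin and 349 ± 15.9 in vehicle cells (log2 change 0.3, adjusted p = 0.001 by limma). With PGC-1alpha, Ddx6 read 382, 369 and 256 in PGC-1alpha cells, against 557, 597 and 659.6 in GFP cells. Those arrays did not overlap, and Ddx6, the only decay gene called there by its brightest probe set, fell (log2 change -0.87, SE 0.13, limma adjusted p = 0.004), on 2 of its 4 probe sets, while 1 of the 2 probe sets of Xrn1, a 5' exonuclease, was also called lower but not its brightest. The call on its brightest probe set was kept whichever array was left out, with log2 changes of -0.97 to -0.68.

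Other AU-rich element binding proteins and kinases that act on them gave 3 higher and 4 lower of 12 with rapamycin, against 11.3% and 18.0% of all genes, and 0 higher and 8 lower on the spike control scale. Hnrnpd (AUF1) averaged 1325 in rapamycin and 1833 in vehicle cells (log2 change -0.47, limma adjusted p = 8.3e-05), Elavl1 (HuR), which stabilises such mRNAs, 1317 in rapamycin and 1724 in vehicle cells (-0.39), and Tial1 changed by -0.29. Rc3h2 (Roquin-2), another mRNA decay factor, was the largest rise, 729.8 in rapamycin and 604 in vehicle cells (0.28). Hnrnpd, Elavl1 and Tial1 were called lower on 2 of 3, 2 of 6 and 3 of 5 probe sets, and Rc3h2 higher on 5 of 7. Of genes not called by their brightest probe set, Celf1 was called lower on 3 of 5, Khsrp on 2 of 3 and Ywhab on 1 of 6. Zc3h12a was called higher on 1 of 2. With PGC-1alpha, Mapkapk2, the kinase that phosphorylates tristetraprolin, was called higher, 821, 760.1 and 748 in PGC-1alpha cells, against 543, 565 and 650 in GFP cells (log2 change 0.41, limma adjusted p = 0.015). Its groups did not overlap, and 0 others of the 12 were called there by their brightest probe set, although 1 of 7 probe sets of Rc3h2 was called lower. Of the fits that left out an array, the call was kept only without GFP replicate 3 (adjusted p = 0.001), and the other adjusted p-values were 0.056 to 0.086.

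Of 25 measured mRNAs known for AU-rich elements, 12 rose and 3 fell with rapamycin, against 11.3% and 18.0% of all genes, with a median log2 change of 0.15 against -0.01 over all genes. The cytokine Il6 read 612, 622 and 684 in rapamycin cells, against 222, 221 and 188 in vehicle cells (log2 change 1.6, limma adjusted p = 3.7e-08). The kinase gene Pim1 averaged 622 in rapamycin and 291 in vehicle cells (1.09), the cyclooxygenase gene Ptgs2 394 in rapamycin and 215 in vehicle cells (0.88), and the chemokine gene Ccl2 3120 in rapamycin and 2032 in vehicle cells (0.62). The cyclin gene Ccnd1 was the largest fall, 551 in rapamycin and 762 in vehicle cells (-0.47). Mcl1 was not called by its brightest probe set but was called lower with rapamycin on 2 of 6. On the spike control scale the counts were 4 higher and 6 lower of the 25. This list, like the members, was chosen with earlier results of these data known, so its shares are not an independent test. With PGC-1alpha 0 of 25 were called by limma, and the smallest p-values were those of Ccl2 (0.14, adjusted p = 0.491) and Il1b (-0.11, adjusted p = 0.550).

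**Figure D5:**
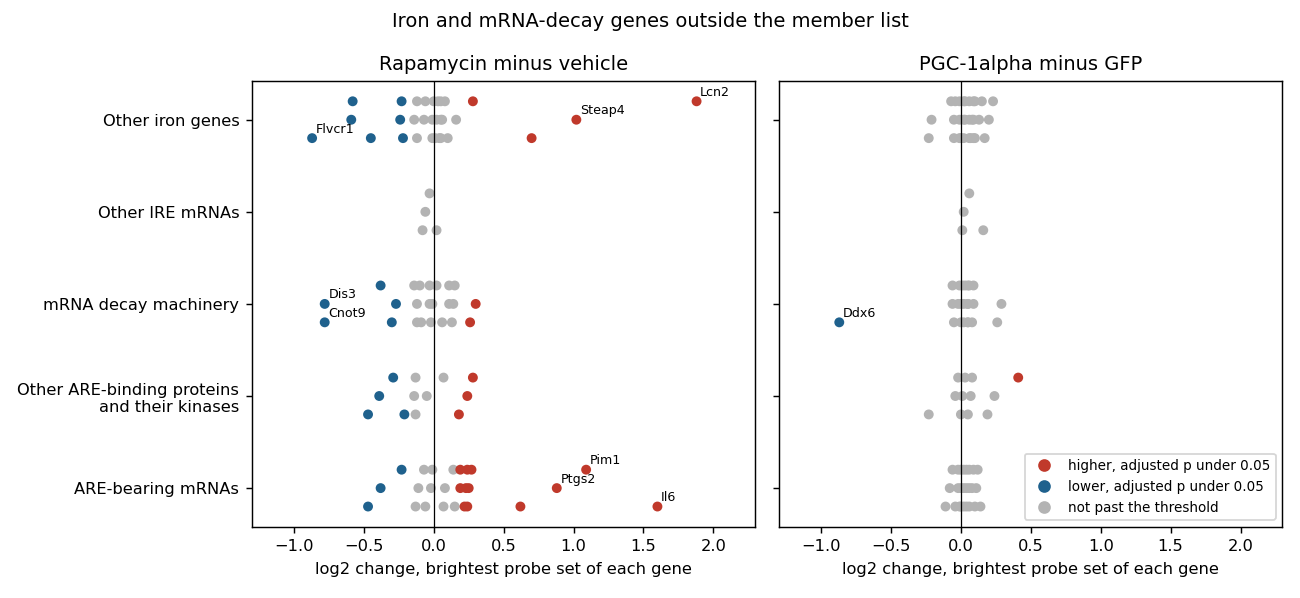
Log2 change of the genes of 5 lists outside the members, 1 point a gene by its brightest probe set, rapamycin minus vehicle on the left and PGC-1alpha minus GFP on the right; rows within a list only spread the points. With rapamycin the called genes lie on both sides of 0, and with PGC-1alpha only Ddx6 (-0.87) and Mapkapk2 (0.41) are called.

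Over the 12 arrays, after the mean of each comparison was subtracted, the 5 genes most like Tfrc by Pearson's r were Wdr12 (0.995), Dcaf15, Steap1, Nhp2 and Ifrd1 (0.994 each). Their log2 changes were -1.08, -0.53, -0.59, -0.82 and -1.15 with rapamycin, and 0.09 to 0.18 with PGC-1alpha. Those most like Zfp36 were Lrrc75a (0.974), Cyp2j6 (0.969), Tmem87b (0.965), Parm1 (0.963) and Ext1 (0.96), with log2 changes of 0.19 to 0.52 with rapamycin and 0.1 to 0.27 with PGC-1alpha. The group means were not subtracted, so r takes in the differences between groups and does not measure variation inside them. The log2 changes come from the same values that gave the ranking. The points share arrays and normalization, and these values are a description of these 12 arrays.

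The labels were checked against the array. Ppargc1a, which encodes PGC-1alpha, averaged 2344 in PGC-1alpha and 87.8 in GFP cells, and 37.2 in rapamycin and 40.7 in vehicle cells. A probe set of Tsc2 read 198 in rapamycin and 262 in vehicle cells, which checks nothing, since the labels do not say which part of the gene is deleted. Fibroblast genes were bright (Col1a1 11665 in rapamycin and 12380.2 in vehicle cells, Vim 9468 in rapamycin and 9535 in vehicle cells), and 5 of 10 fibroblast markers were called higher with rapamycin, with sums of 62726 to 67075 over rapamycin and 59368 to 61311 over vehicle arrays. Of 8 macrophage markers, 2 were called higher (Cd68, 69.1 in rapamycin and 56.7 in vehicle cells, and Cd14, 287 in rapamycin and 250.4 in vehicle cells), with sums of 925 to 948 over rapamycin and 854 to 887 over vehicle arrays, and the pan-leukocyte gene Ptprc read 26.7 in rapamycin and 24.6 in vehicle cells. Of 5 epithelial markers, 2 were called higher and 1 lower, with sums of 2197 to 2277 over rapamycin and 2222 to 2258 over vehicle arrays, and 0 of 4 erythroid and 0 of 4 endothelial markers were called. On the spike control scale the counts with rapamycin were 2 higher and 2 lower for fibroblast, 0 and 1 for macrophage, 1 and 1 for epithelial, and 0 and 1 each for erythroid and endothelial markers. With PGC-1alpha 0 markers of any of these lists were called. The arrays have no value of 0, the part of these markers in the results above was not tested, and fewer cells of a type cannot be told apart from less RNA per cell.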

How the data were processed

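Total RNA from 12 cultures was isolated with Trizol, labelled with biotin and hybridised to 1 array each, per the labels' protocols. Per the series design text, the authors used RMA from BioConductor 1.2 at its defaults, separately for the rapamycin and vehicle arrays and for the PGC-1alpha and GFP arrays. RMA corrects background, quantile-normalizes and summarises each probe set, so a change in total RNA per cell would not show. The deposited values are intensities, whose scale the sources used here do not name. They run from 9.3 to 21072 with array medians of 77.5 to 81.0 and were read as linear. The table has no detection calls, and the small number of arrays, 3 a group, limits the precision.

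Intensities were turned into log2 without a pseudocount and fitted with limma 3.58.1 (R 4.3.3), 6 arrays per comparison, over 45037 probe sets after 64 control probe sets were left out, with no filter on low values. P-values are two-sided, were adjusted by Benjamini-Hochberg over all of them, and were called at 0.05. They measure the spread between arrays of a group. The difference between the effects was a contrast in a fit of 4 group means over 12 arrays. The Tfrc control probe sets were tested in a fit that kept all 45101 probe sets. Groups and replicate numbers came from the sample labels. The steps were tested on simulated data.

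Of all probe sets, 34958 had 1 gene symbol, 932 several and 9211 none in the platform annotation, and only the first kind was named. The brightest probe set over 12 arrays stood for a gene. The members and lists were chosen with earlier results of these data known. In each other list, up to 4 genes past the threshold with the largest change and the largest change the other way were named, or the 2 with the smallest p where none passed. Alternatives were the replicate block, each array left out, quantile normalization over 12 arrays, spike control scaling, a pseudocount of 16, only the brighter probe sets, controls kept, a fit over 12 arrays, a trended and robust variance, and other ways to pick a gene's probe set. The same-numbered arrays did not deviate together (r of -0.052, 0.072 and 0.005 for rapamycin and vehicle, and -0.133, 0.231 and -0.011 for PGC-1alpha and GFP). Proteins were not analysed here.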

Additional observations from a re-analysis of the deposited data

How the results depend on the processing

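With rapamycin, the counts of 3 member probe sets higher and 8 lower moved by over 1.5 times only under spike control scaling, to 1 higher and 14 lower (0 of the 9 genes higher); scaling shifts all changes by the same amount, and its spike controls differ between arrays. With PGC-1alpha, the count of higher member probe sets and that of genes were both 1 in the 12-array fit and with dim probe sets left out, and 0 to 2 with an array left out, the 2 being without GFP replicate 3. The count of lower probe sets was 1 with a pseudocount of 16, 0 under spike control scaling and 0 to 1 with an array left out (0 without GFP replicate 2 or PGC-1alpha replicate 1 or 3). For genes it was 0 under spike control scaling and 0 to 1 with an array left out. The cause of these moves was not tested. With the replicate number as a block, the counts were 3 higher and 8 lower for rapamycin, 0 and 2 for PGC-1alpha and 2 and 8 for the difference, as without it; the check gave no pairing. No member probe set changed direction past the threshold under any alternative run for its comparison. The alternatives counted for the difference were the replicate block, each array left out, quantile normalization over 12 arrays and only the brighter probe sets. Spike control scaling, the pseudocount and the trended, robust variance were not run for the difference. Of the alternatives for single probe sets, 271 gave the same call with rapamycin, 12 a call not made before and 8 a lost call; these numbers were 274, 4 and 12 with PGC-1alpha and 302, 1 and 8 for the difference. Without detection calls, a dim gene such as Slc40a1 cannot be told from background.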
